A study of Mus musculus with 6 samples.

Results

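The Eph receptors and their ephrin ligands were followed through 10 genes in the mouse mammary tumour line 4T1: the receptor genes Epha1, Epha2, Epha4, Ephb2, Ephb3 and Ephb4 and the ligand genes Efna1, Efna5, Efnb1 and Efnb2. They were chosen by symbol, with earlier results of these data known, and all 10 were found through their Ensembl mouse identifiers among the 23644 genes of the deposited table. RNA sequencing covered 3 libraries of control cells, labelled wild type, and 3 libraries of cells labelled Carmil3 knockout. Carmil3 encodes a protein of the CARMIL family, which binds actin capping protein. Both groups were grown in DMEM with fetal bovine serum and antibiotics. The knockout cells were clones grown from single cells, and the labels do not say how many clones were sequenced or how the knockout was made. With that number unknown, an effect of the knockout and a difference between clones cannot be told apart in any result below. No label says that replicate libraries are separate cultures, and the p-values cover the spread between these samples alone, which may be technical in origin. The question was which Eph and ephrin transcripts differ between control and Carmil3 knockout 4T1 cells.

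Eph receptors are receptor tyrosine kinases that bind ephrins on the surface of a neighbouring cell, so that signalling needs cell contact. The receptor signals forward into its own cell and the ephrin signals in reverse into the cell that carries it, and both routes act on small GTPases and the actin cytoskeleton. Ephrin-A ligands are held in the membrane by a lipid anchor, and ephrin-B ligands span the membrane and have a cytoplasmic tail that binds PDZ domain proteins. In epithelia, mammary epithelium included, the system is known for cell sorting, boundary formation and control of cell adhesion.

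From the spacing of the FPKM values (reads or fragments scaled by exon length and by library depth), a scaling depth was recovered for each library. It lay between 17779105 and 19046745 reads. This depth is relative, since the listed genes sum to between 108.7% and 109.1% of it. The targeted gene, Carmil3, was near the lower limit of the measurement, with 0.036, 0.0246 and 0.0117 FPKM in the control libraries against 0, 0.0118 and 0.0241 FPKM in the knockout libraries. The groups overlapped (two-sided exact permutation test p = 0.3, where 0.1 is the smallest p that 3 against 3 samples allow), so the labels could not be checked by it. The epithelial markers fixed for these cells were all expressed in the control libraries, and all 10 fell in the knockout libraries. Their summed level was between 1060 and 1160 FPKM in control and between 431 and 474 FPKM in knockout libraries. Most of that sum came from the keratin genes Krt8 and Krt18, at 46.0% and 43.6% of their control means in the knockout, and the other 8 fell further. Epcam was at 0.445%, Krt7 at 0.532%, Krt14 at 0.372%, Cldn4 at 0.147% and Cdh1, the E-cadherin gene, at 6.22% of the control mean. These genes and Cldn7 reached 1 FPKM in control libraries alone and passed the filter through them. Endothelial markers summed to at most 0.0682 FPKM in any library. Of the listed leukocyte markers Ptprc, Itgam, Adgre1 and Csf1r stayed below 1 FPKM everywhere, and the leukocyte sum lay between 3.49 and 4.64 FPKM over the 6 libraries. Of the listed fibroblast markers Dcn, Col1a2 and Postn stayed below 1 FPKM, and the fibroblast sum was between 11.5 and 12.2 FPKM in control and between 17.8 and 18.3 FPKM in knockout libraries, most of it from Pdgfra. Of the 2 fibroblast markers tested by limma, Pdgfra rose from 10.1 to 17.6 FPKM (adjusted p = 1.18e-05) and Col1a1, which passed the filter through the control libraries alone, fell from 1.5 to 0.271 FPKM (adjusted p = 7.58e-05). What part these marker shifts have in the results on Eph and ephrin genes was not tested. On the second principal component over all tested genes, with 11.8% of the variance, knockout replicate 3 stood apart at -15.55, with knockout replicates 1 and 2 at 6.73 and 9.56.

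In the knockout cells 6 of the 10 genes fell and 1 rose, and the other 3 were not called. The receptor genes Epha1, Ephb3 and Ephb4 and the ligand genes Efnb2, Efna5 and Efnb1 fell, and the receptor gene Epha4 rose. The most abundant receptor gene, Epha2, and its ligand gene Efna1 had groups that overlapped, and Ephb2 did not pass the test. The test was limma on log2(FPKM + 1) with Benjamini-Hochberg adjustment over 11171 genes and a threshold of 0.05. Calls were common over the whole table: 35.6% of all genes tested were called, 16.9% as higher and 18.7% as lower. The groups did not overlap for 8 of the 10 genes, against 50.5% of all genes tested. The median log2 change was -0.32 over the 10 genes and -0.007 over all genes tested. Because the 10 genes were chosen with earlier results of these data known, these contrasts with all genes are descriptions and were not tested. All 10 genes passed the filter of at least 1 FPKM in at least 3 libraries, but Ephb3 passed it through the control libraries alone. Efnb1 reached 1 FPKM in 3 control libraries and in 1 knockout library. Leaving out control replicate 1 brought the calls over all genes from 1886 higher and 2087 lower to 1182 higher and 1358 lower. In bulk RNA, fewer cells that express a gene and less transcript per cell cannot be told apart.

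**Figure D1:**
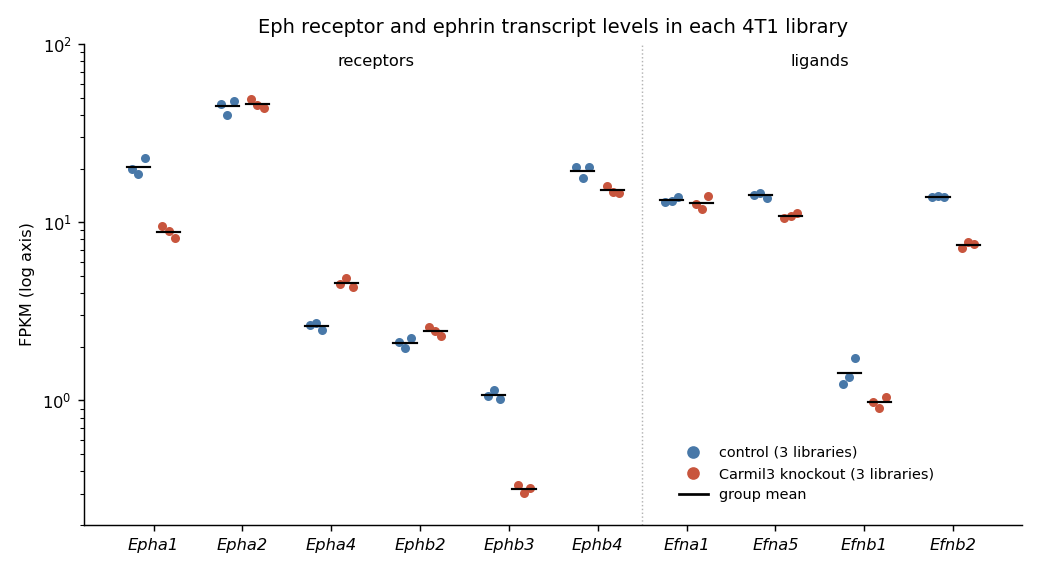
FPKM (log axis) of the 10 genes in each of the 3 control and 3 Carmil3 knockout libraries, with points for libraries and black bars for group means. Knockout points lie below all control points for Epha1, Ephb3, Ephb4, Efna5, Efnb1 and Efnb2, lie above them for Epha4 and Ephb2, and overlap them for Epha2 and Efna1.

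Among the EphA receptors, Epha1 and Epha4 went in opposite directions. Epha1 encodes a receptor found mainly in epithelia that binds ephrin-A1. It was at 19.8, 18.7 and 22.9 FPKM in the control libraries and at 9.46, 8.96 and 8.17 FPKM in the knockout libraries. Every knockout library lay below every control library, and the knockout mean was 43.3% of the control mean. Means were 20.4 ± 2.17 and 8.86 ± 0.652 FPKM (SD, n = 3), and the log2 change of (FPKM + 1) was -1.12 (SE 0.084, adjusted p = 2.37e-05 by limma). Of the 10 genes this was the largest change on that scale, and 211 of all tested genes had a larger one in absolute size. Between 1303 and 1681 reads stood behind each control value and between 582 and 708 behind each knockout value.

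Epha4 encodes a receptor that binds ephrins of both classes. Its level was 2.65, 2.72 and 2.47 FPKM in the control libraries and 4.51, 4.85 and 4.30 FPKM in the knockout libraries. All knockout libraries were higher than all control libraries, with 1.74 times the control mean. The log2 change of (FPKM + 1) was 0.62 (SE 0.068, adjusted p = 0.000221 by limma), and on the recovered reads, without the pseudocount of 1 FPKM, it was 0.80. Epha4 was the only gene of the 10 that was called higher.

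Epha2 encodes the receptor for ephrin-A1 that is abundant in many carcinomas. It was at 46.0, 39.7 and 48.1 FPKM in the control libraries and at 49.1, 45.7 and 43.8 FPKM in the knockout libraries. The groups overlapped, with control replicate 2 the lowest of all 6 libraries. The log2 change of (FPKM + 1) was 0.05 with a 95% interval from -0.13 to 0.23 (adjusted p = 0.637 by limma), and its sign turned to -0.03 without control replicate 2 and to -0.04 after centring on neighbouring genes. With between 3302 and 4375 reads per library, Epha2 was the most deeply covered of the 10 genes.

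Among the EphB receptors of the 10 genes, Ephb3 had the largest ratio between groups and Ephb4 the largest difference in FPKM. Ephb3, with Ephb2, is known for positioning cells along the intestinal crypt. Ephb3 was at 1.06, 1.14 and 1.02 FPKM in the control libraries and at 0.334, 0.301 and 0.324 FPKM in the knockout libraries. The groups stood well apart, and the control mean was 3.35 times the knockout mean. The log2 change was -0.65 on the log2(FPKM + 1) scale (SE 0.079, adjusted p = 0.000412 by limma), a scale that compresses levels near 1 FPKM. With a pseudocount of 0.1 the log2 change was -1.48, and on the recovered reads it was -1.73. The recovered reads of Ephb3 did not come out whole with the annotated exon length, so its level relative to the other genes is approximate.

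Ephb4 encodes the receptor whose main ligand is ephrin-B2. It was at 20.4, 17.7 and 20.3 FPKM in the control libraries and at 15.9, 14.8 and 14.6 FPKM in the knockout libraries. The lowest control library was still above the highest knockout library. Means were 19.5 ± 1.52 and 15.1 ± 0.680 FPKM (SD, n = 3), with a log2 change of -0.35 (SE 0.069, adjusted p = 0.00508 by limma). Ephb2 was at 2.12, 1.97 and 2.24 FPKM in control and at 2.57, 2.46 and 2.30 FPKM in knockout libraries. The groups did not overlap, but the gap was small beside the spread: the log2 change was 0.15 with a 95% interval from -0.02 to 0.31 (adjusted p = 0.148 by limma).

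Of the 4 ligand genes among the 10, both ephrin-B genes fell, with Efnb2 called under every alternative setting run and Efnb1 losing its call under several. Efnb2 encodes ephrin-B2, a transmembrane ligand of EphB4 and of other Eph receptors. It was at 13.8, 14.1 and 13.9 FPKM in the control libraries and at 7.16, 7.73 and 7.5 FPKM in the knockout libraries. Within each group the libraries were close together, and the knockout mean was 53.5% of the control mean. The log2 change was -0.82 (SE 0.054, adjusted p = 1.08e-05 by limma), with at least 932 reads behind every value.

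Efnb1 encodes ephrin-B1, which lies on chromosome X. It was at 1.23, 1.35 and 1.72 FPKM in the control libraries and at 0.973, 0.908 and 1.05 FPKM in the knockout libraries. The groups did not overlap, and control replicate 3 was set apart above the others. The log2 change was -0.29 (SE 0.094, adjusted p = 0.0406 by limma) and -0.54 on the recovered reads, with between 58 and 111 reads behind each value. Leaving out a library ended this call in 5 of 6 cases by limma: adjusted p was 0.0751 without control replicate 2, 0.123 without control replicate 3, 0.0946 without knockout replicate 1, 0.111 without knockout replicate 2 and 0.0533 without knockout replicate 3. No call was made either without the expression filter (adjusted p = 0.0924), under quantile normalization (0.0909) or once the gene was centred on its neighbours (0.25).

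Of the 2 ephrin-A genes among the 10, Efna5 fell and Efna1 was not called. Efna5 encodes ephrin-A5, which binds EphA receptors and also EphB2. It was at 14.2, 14.6 and 13.7 FPKM in control and at 10.5, 10.8 and 11.2 FPKM in knockout libraries. Every knockout library was lower than every control library, with a log2 change of -0.36 (SE 0.054, adjusted p = 0.00123 by limma). Efna1 encodes ephrin-A1, a ligand of EphA2 and EphA1. It was at 12.9, 13.2 and 13.9 FPKM in control and at 12.7, 11.9 and 14.0 FPKM in knockout libraries. These groups overlapped, with knockout replicate 3 above every control library, and the log2 change was -0.05 with a 95% interval from -0.21 to 0.10 (adjusted p = 0.588 by limma).

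Without knockout replicate 3, the library that lay apart, the log2 changes were -1.07 for Epha1, 0.65 for Epha4, -0.65 for Ephb3, -0.32 for Ephb4, -0.82 for Efnb2, -0.38 for Efna5 and -0.32 for Efnb1. Of the 7 calls only that of Efnb1 was lost there. Tested against a 1.5-fold change, Epha1 (adjusted p = 0.00449 by limma) and Efnb2 (adjusted p = 0.0384) passed and the other genes did not.

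**Figure D2:**
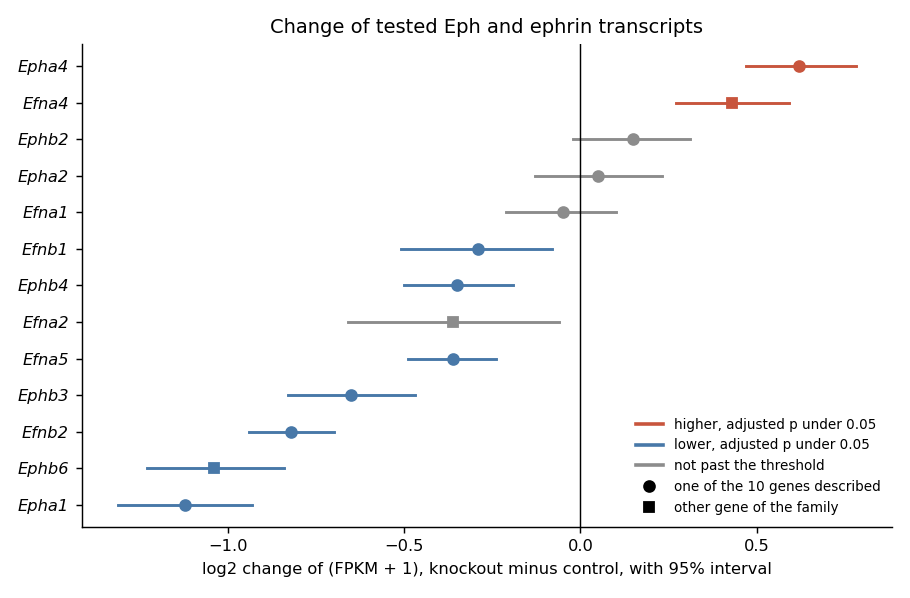
Log2 change of (FPKM + 1), knockout minus control, with its 95% interval (limma, 3 libraries a group), for the 13 tested genes of the Eph and ephrin family, circles for the 10 genes described and squares for the others. Epha1 at -1.12 and Ephb6 at -1.04 lie at the low end and Epha4 at 0.62 at the high end, and the intervals of Epha2, Ephb2 and Efna1 include 0.

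Upstream sequence is shown for the 3 genes of the 10 with the largest ratios of control to knockout (Ephb3, Epha1 and Efnb2) and for Epha4, the gene that rose. The windows run from 250 to 51 bases before the RefSeq start on GRCm38.p6, written 5′ to 3′ on the gene's own strand. A RefSeq entry was found for 10 of the 10 genes. Capitals mark matches on either strand to 4 motifs: CAGGTG, an E-box form bound by Snail and Zeb factors, TGANTCA, the AP-1 site, GGAATG, the core bound by TEAD factors, and GGGCGG, the GC box.
Epha1, chr6:42373319-42373518, minus strand: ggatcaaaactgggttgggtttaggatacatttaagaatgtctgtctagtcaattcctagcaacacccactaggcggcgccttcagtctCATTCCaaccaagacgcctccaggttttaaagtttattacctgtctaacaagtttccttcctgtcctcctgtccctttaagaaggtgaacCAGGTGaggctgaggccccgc
Efnb2, chr8:8661293-8661492, minus strand: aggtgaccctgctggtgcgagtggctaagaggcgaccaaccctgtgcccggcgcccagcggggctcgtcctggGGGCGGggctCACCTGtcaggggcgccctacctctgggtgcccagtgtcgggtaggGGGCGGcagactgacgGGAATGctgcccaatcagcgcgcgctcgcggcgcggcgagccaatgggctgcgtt
Ephb3, chr16:21204545-21204744, plus strand: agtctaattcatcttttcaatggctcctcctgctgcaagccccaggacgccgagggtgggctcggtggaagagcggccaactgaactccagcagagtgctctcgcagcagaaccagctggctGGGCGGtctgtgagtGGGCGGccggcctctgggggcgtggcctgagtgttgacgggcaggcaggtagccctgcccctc
Epha4, chr1:77515139-77515338, minus strand: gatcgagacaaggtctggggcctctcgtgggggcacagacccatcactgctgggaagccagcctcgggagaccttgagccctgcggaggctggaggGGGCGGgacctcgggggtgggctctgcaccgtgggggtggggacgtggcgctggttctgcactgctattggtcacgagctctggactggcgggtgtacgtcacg

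Over 32851 RefSeq windows of the same 200 bases, the E-box form was found in 14.4%, the TEAD core in 10.7%, the AP-1 site in 5.57% and the GC box in 24.6%. The Epha1 window held the E-box form at bases 71 to 66 before the start and the TEAD core as CATTCC at bases 161 to 156. The Efnb2 window held the E-box form as CACCTG at bases 167 to 162, the TEAD core at bases 105 to 100 and the GC box at 2 places. The windows of Ephb3 and Epha4 held only the GC box, at 2 places and at 1 place. The E-box form appeared in no window of the other 8 genes, and the AP-1 site in no window of the 10. The TEAD core was also at 2 places in the window of Epha2, which was not called. The GC box was also in windows of Epha2, Ephb4, Efna1 and Efna5. Epha1 had the lowest G and C content of the 10 genes at 48.0%, with 4 CpG, and Efna5 the highest at 75.5% with 29 CpG, beside a median of 51.5% over all windows. A match describes letters in the window and not a bound site.

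FPKM values are scaled by exon length and can be ranked between genes. In control cells Epha2 (44.6 FPKM) led, followed by Epha1 (20.4) and Ephb4 (19.5), whose library ranges overlapped. Efna5 (14.2), Efnb2 (13.9) and Efna1 (13.3) came next, with ranges overlapping from each to the following gene. Epha4 (2.61), Ephb2 (2.11), Efnb1 (1.43) and Ephb3 (1.07) were low. In knockout cells the order of mean FPKM was Epha2 (46.2), Ephb4 (15.1), Efna1 (12.8), Efna5 (10.8), Epha1 (8.86), Efnb2 (7.46), Epha4 (4.55), Ephb2 (2.44), Efnb1 (0.978) and Ephb3 (0.320), and no 2 neighbours in that order had overlapping ranges. Epha1 thus went from place 2 to place 5, and Efna1 from place 6 to place 3 with a level that did not pass the test of change.

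Shares within the receptor and ligand sums moved with these changes. Summed over the 11 listed Eph receptor genes, control cells had 92.0 ± 7.67 FPKM and knockout cells 77.9 ± 4.37 FPKM (SD, n = 3). Epha2 made up 49.0%, 47.5% and 48.8% of that sum in the control libraries and 59.6%, 59.0% and 59.4% in the knockout libraries. Its share was higher in every knockout library although its own level did not pass the test. The share of Epha1 went from 22.2% ± 1.04 to 11.4% ± 0.260 and that of Epha4 from 2.86% ± 0.375 to 5.85% ± 0.396 (SD, n = 3). The ratio of Epha2 to Epha1 FPKM was between 2.11 and 2.32 in control and between 5.10 and 5.36 in knockout libraries.

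The 8 listed ephrin genes summed to 50.1 ± 0.731 FPKM in control cells against 41.1 ± 1.65 FPKM in the knockout (SD, n = 3). Efnb2 made up 27.8% ± 0.547 of that sum in control and 18.2% ± 0.867 in knockout cells, and Efna1 26.6% ± 0.616 and 31.2% ± 1.58. The ephrin-B sum was between 15.8 and 16.4 FPKM in control and between 9.27 and 9.47 FPKM in knockout libraries, and the ephrin-A sum between 33.4 and 34.6 and between 30.6 and 33.5 FPKM. For the receptor and ligand pair of EphB4 and ephrin-B2, both of which fell, the ratio of Ephb4 to Efnb2 FPKM was 1.40 ± 0.122 in control and 2.03 ± 0.163 in knockout cells. The ratio of all receptor to all ligand FPKM was 1.84 ± 0.133 and 1.90 ± 0.176 (SD, n = 3), a difference smaller than the spread. These sums and shares are descriptions and were not tested.

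**Figure D3:**
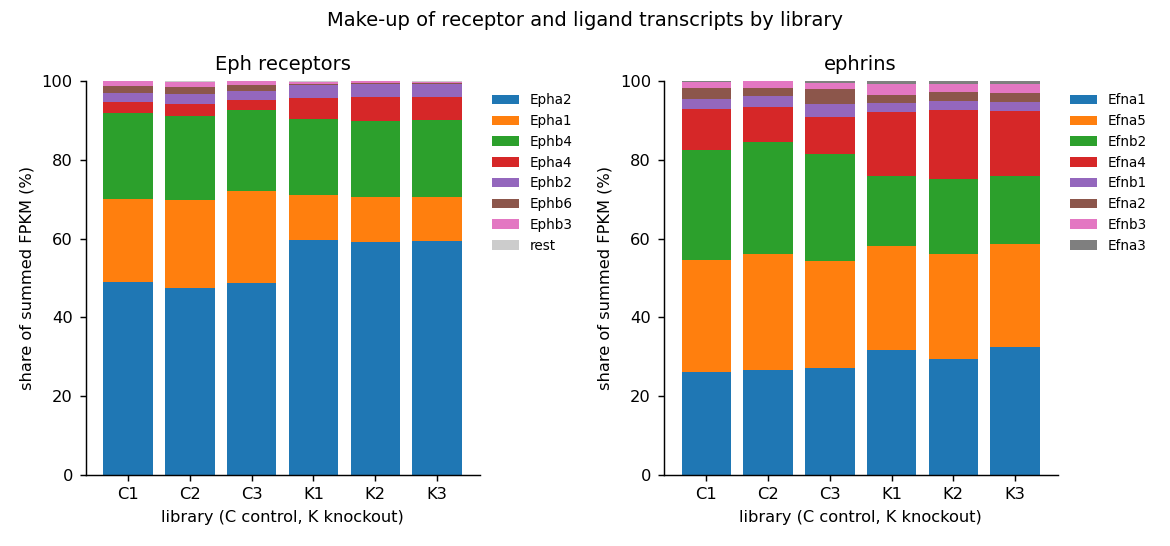
Share of the summed FPKM (percent) that each gene takes among the Eph receptor genes (left) and the ephrin genes (right), in control libraries C1 to C3 and knockout libraries K1 to K3. Epha2 takes between 47.5% and 49.0% of the receptor sum in control and between 59.0% and 59.6% in knockout libraries, and Efnb2 takes a smaller share of the ligand sum in every knockout library.

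Of the 12 other genes of the family, 9 were listed in the table and 3 of these passed the filter. Ephb6 encodes a receptor without kinase activity. It was at 1.68, 1.57 and 1.51 FPKM in control and at 0.348, 0.229 and 0.205 FPKM in knockout libraries. Between 105 and 115 reads stood behind each control value of Ephb6 and only between 14 and 25 behind each knockout value. Its control mean was 6.09 times the knockout mean, a wider gap than for any of the 10 genes above (log2 change -1.04 on the log2(FPKM + 1) scale, adjusted p = 3.78e-05 by limma, and -2.61 on the recovered reads), and like Ephb3 it passed the filter through the control libraries alone. Efna4, which encodes ephrin-A4, was at 5.23, 4.50 and 4.74 FPKM in control and at 6.44, 7.06 and 7.03 FPKM in knockout libraries. It rose by a log2 change of 0.43 (adjusted p = 0.0019 by limma), and its share of the ephrin sum went from 9.63% ± 0.772 to 16.7% ± 0.729 (SD, n = 3). Efna2 was at 1.42, 1.03 and 1.93 FPKM in control and at 0.764, 0.938 and 0.983 FPKM in knockout libraries, with adjusted p = 0.0616 by limma, and it too passed the filter through the control libraries alone. Without control replicate 2 Efna2 passed the test (adjusted p = 0.0194), and it did so after centring on neighbouring genes (adjusted p = 0.0399).

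The remaining 6 listed family genes did not pass the filter and were not tested. Efnb3, the third ephrin-B gene, lay between 0.738 and 1.14 FPKM, from between 44 and 69 reads, and Efna3 between 0.0693 and 0.362 FPKM over the 6 libraries, with overlapping groups. Epha8 was at 0.128, 0.0597 and 0.0567 FPKM in control and at 0.267, 0.161 and 0.140 FPKM in knockout libraries, from at most 24 reads. Epha3, Epha10 and Ephb1 never rose above 0.0156 FPKM.

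The 10 genes lie on 9 chromosomes, and for most of the called ones the change was larger than the typical change of the genes around them. On GRCm38, Epha1 lies on chromosome 6 (42358487 to 42373268), Efnb2 on chromosome 8 (8617434 to 8661242), Ephb3 on chromosome 16 (21204755 to 21223305), Epha4 on chromosome 1 (77367185 to 77515088) and Ephb4 on chromosome 5 (137350109 to 137378669). The 40 nearest tested genes had a median log2 change of 0.17 around Epha1, -0.07 around Efnb2, 0.01 around Ephb3, 0.02 around Epha4 and -0.04 around Ephb4. Each of these genes lay at least 0.30 from its neighbours' median. Ephb6 lies close to Epha1 on chromosome 6 (41605482 to 41620509), and its neighbours also had a median of 0.17. How many neighbours Ephb6 and Epha1 share was not counted, so the equal medians are not separate observations. For Efna5 on chromosome 17 the neighbours had a median of 0.12, and for Efnb1 on chromosome X the median was -0.13 beside its own -0.29. After centring on neighbouring genes 1 of the 10 genes rose and 5 fell.

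**Figure D4:**
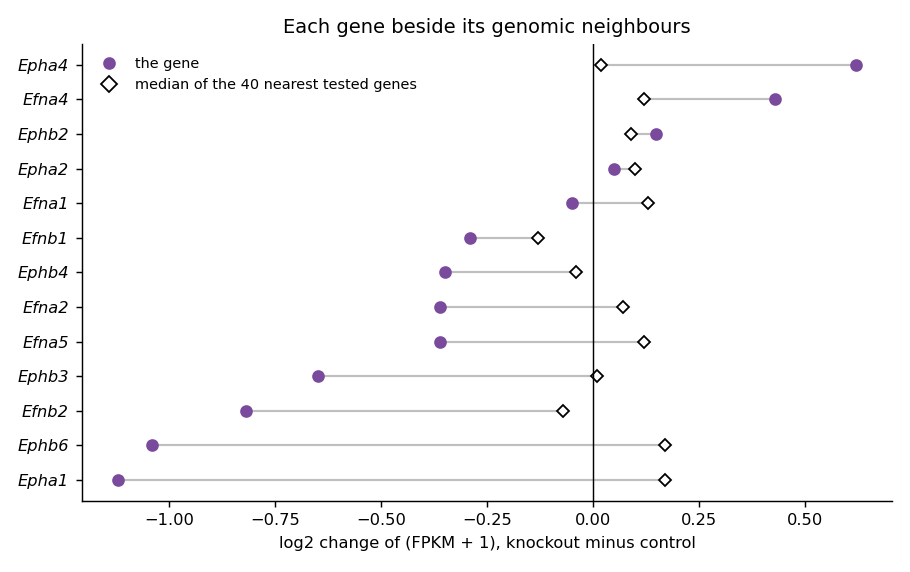
Log2 change of (FPKM + 1), knockout minus control, of each tested Eph and ephrin gene (filled circles) and the median over its 40 nearest tested genes (open diamonds). The medians lie between -0.13 and 0.17, and Epha1, Ephb6, Efnb2, Ephb3 and Epha4 lie about 0.60 or more from theirs.

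Of 73 genes that act with Eph receptors and ephrins, 72 were listed and 63 tested. Among these 10 rose, 15 fell and 38 were not called, so 39.7% were called beside 35.6% of all genes. Their median log2 change was -0.06. Without control replicate 1 the counts were 6 and 9, and without the expression filter 6 rose and 13 fell.

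Downstream adaptors, exchange factors and kinases went both ways, with 6 of 31 tested genes higher and 5 lower. That is 35.5% called, beside 35.6% of all genes tested. Grb7, an SH2 adaptor gene, fell from 5.27 ± 0.576 to 2.06 ± 0.192 FPKM (SD, n = 3), a log2 change of -1.03. The Src family kinase genes Lyn and Yes1 had log2 changes of -0.32 and -0.24, and Yes1 was no longer called by limma when control replicate 1 (adjusted p = 0.0911), control replicate 2 (0.0679), knockout replicate 1 (0.074) or knockout replicate 2 (0.0579) was left out, without the filter (0.0565) and with neighbour centring (0.123). Ptprj, a receptor tyrosine phosphatase gene, rose from 5.80 ± 0.133 to 8.69 ± 0.665 FPKM (SD, n = 3). Tiam1, a Rac exchange factor gene, and Nck2, an adaptor gene that links receptors to actin assembly, rose with log2 changes of 0.37 and 0.36.

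Of 10 genes for ephrin and Eph cleavage and uptake, 4 fell and 0 rose by limma. The share called was 40%, all lower, while 35.6% of all genes tested were called and 18.7% were called lower. At an unadjusted p of 0.05 by limma 0 were higher, but 1 was without knockout replicate 3 and 1 with neighbour centring. By limma-voom 0 were called higher. Among those that fell, Psen2 (log2 change -0.44) and Ncstn (-0.20) encode parts of gamma-secretase, and Adam10 (-0.19), named after its value was seen, encodes an ectodomain protease. With neighbour centring limma no longer called Ncstn (adjusted p = 0.226). Ncstn was not called either when control replicate 1 (adjusted p = 0.0656) or else knockout replicate 2 (0.0555) was left out. Adam10 lost its call without the filter (adjusted p = 0.06 by limma) and when control replicate 1 (0.103), control replicate 2 (0.0751), knockout replicate 1 (0.0704) or else knockout replicate 2 (0.0583) was left out.

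Partners of ephrin-B reverse signalling held the largest change of the 63 genes, with 3 of 11 tested genes higher and 3 lower. This made 54.5% called, beside 35.6% of all genes tested, and the difference in share was not tested. Pdzrn3, which encodes a PDZ domain ubiquitin ligase, fell from 5.66 ± 0.420 to 1.13 ± 0.0701 FPKM and Pard6b, a cell polarity gene, from 7.07 ± 0.250 to 3.45 ± 0.261 FPKM (SD, n = 3). Their log2 changes were -1.64 and -0.86. Stat3, a transcription factor gene, rose (0.39), and so did Ptpn13 (0.95), a PDZ domain phosphatase gene named after its value was seen, from 0.240 ± 0.0324 to 1.40 ± 0.172 FPKM. Ptpn13 passed the filter through the knockout libraries alone. Sdcbp, the syntenin gene, had 0.21 and Rgs3 had -0.25. Sdcbp was no longer called by limma when control replicate 1 (adjusted p = 0.103) or control replicate 3 (0.0871) was left out, without the filter (0.0768) and with neighbour centring (0.179). Rgs3 was no longer called when control replicate 1 (adjusted p = 0.0619), control replicate 3 (0.0768) or else knockout replicate 2 (0.0579) was left out, or without the filter (0.0532).

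Of the 11 genes for small GTPases and their effectors, 1 rose and 3 fell, which is 36.4% called and close to the 35.6% of all genes tested. The GTPase genes Rhoa, Rac1 and Cdc42 did not pass the test. The kinase genes Rock1 and Rock2 fell from 23.6 ± 2.78 to 16.7 ± 0.756 FPKM and from 29.4 ± 2.35 to 22.3 ± 1.14 FPKM (SD, n = 3), and Ezr, the ezrin gene, had a log2 change of -0.25. Rock2 was not called with neighbour centring (adjusted p = 0.191 by limma). The gene that rose was the LIM kinase gene Limk1 (log2 change 0.24), named after its value was seen. Its adjusted p by limma was 0.035, and it was not called without the filter (0.0605) or when control replicate 1 (0.129), control replicate 2 (0.093), knockout replicate 1 (0.0853) or else knockout replicate 2 (0.102) was left out.

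**Figure D5:**
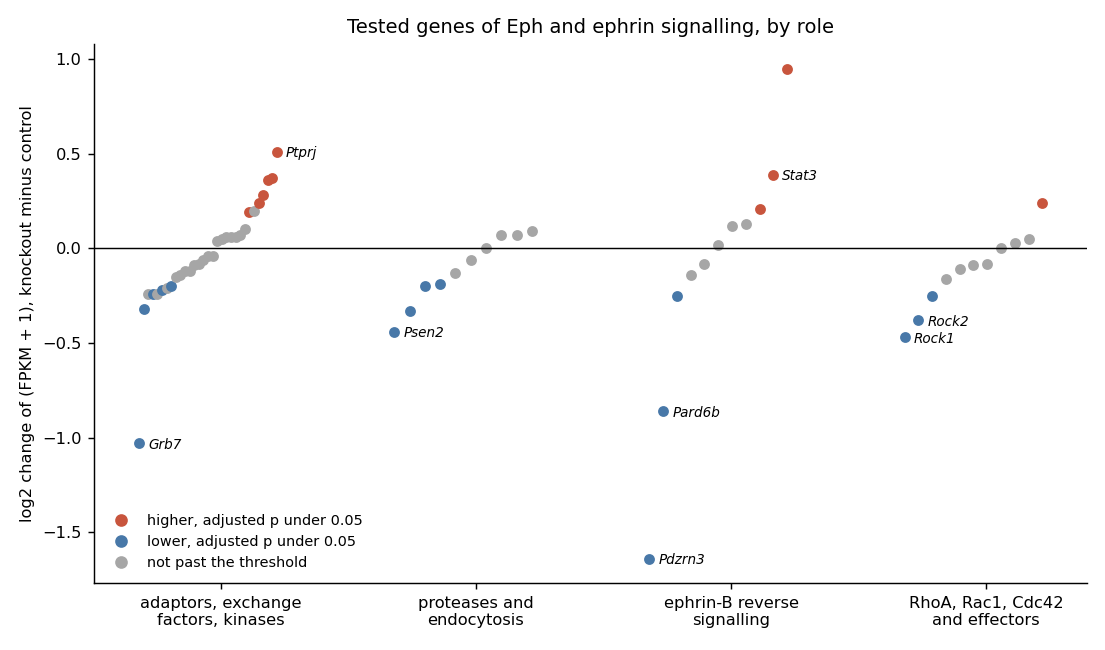
Log2 change of (FPKM + 1), knockout minus control, of 63 tested genes of Eph and ephrin signalling in 4 groups by role, each point a gene, coloured by the call at an adjusted p of 0.05. Pdzrn3 at -1.64, Grb7 at -1.03 and Pard6b at -0.86 are the lowest, and each group but the proteases holds called genes in both directions.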

How the data were processed

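The authors deposited 1 table with values of the form of FPKM for each library. Per the submitters' processing notes, the tools were HTSeq 0.6.0, TopHat, TopHat2 2.0.12, Bowtie2, Bowtie and CASAVA, with mm10. The unit was read from the values. Annotation and strand setting were not given in the sources used here, so reads of overlapping genes cannot be told apart. Identifiers were matched to GENCODE M21 (GRCm38), which named 23577 of 23644 rows.

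The 11171 genes that reached 1 FPKM in 3 or more of 6 libraries were compared as log2(FPKM + 1) by limma 3.58.1 (R 4.3.3), using eBayes with its trend and robust options, with Benjamini-Hochberg adjustment over all of them. The log2 scale with a pseudocount understates changes of low genes. Python 3.11.15 was used for tables and figures. Values were multiplied by annotated exon length and by a depth fitted for each library so that reads came out whole. This gave whole reads within 0.02 for between 91.9% and 92.2% of values up to 500 reads. The fit aimed at whole reads, so this share is not a separate check. By limma-voom on these reads 2051 genes were called higher and 2250 lower. The listed genes sum to between 108.7% and 109.1% of the recovered total, so depths are relative. Replicate pairs were not copies of each other: their chi-square per degree of freedom ran from 3.02 to 19.03. The fit was also run on simulated data, and the outcome is not reported here. Neighbour centring subtracts the median log2 change over 20 tested genes on either side.

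Members, lists and tests were chosen with earlier results of these data known. Named pathway genes are up to 3 called genes per direction and role whose higher group mean reached 2 FPKM. A gene that these lists count is not reported here by name. The alternatives varied the pseudocount (0.1 or 5), the filter (none or 5 FPKM), the scaling (median-of-ratios or quantile) and the eBayes options. Others were a 1.5-fold threshold, a replicate block, leaving out each library, limma-voom and neighbour centring.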

Additional observations from a re-analysis of the deposited data

How the results depend on the processing

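Under the 17 alternative settings Epha1 and Efnb2 kept their direction and call, and Epha4, Ephb3, Ephb4 and Efna5 did so wherever they were tested except against a 1.5-fold change. That threshold left 118 higher and 193 lower genes over the table, 0 and 2 of the 10 Eph and ephrin genes, and 1 and 2 of the genes that act with them. With a filter of 5 FPKM, which left Epha4 untested, 0 of the 10 genes rose. Without a filter 6 genes of the pathway lists rose. Epha2, which was not called, had log2 changes from -0.03 to 0.11 with 1 library left out, with the negative value without control replicate 2, and changed sign after centring on neighbouring genes (-0.04). With 1 library left out between 1182 and 2041 genes were higher and between 1358 and 2218 lower, and the pathway lists had between 6 and 10 higher and between 9 and 17 lower. The lowest of these counts came without control replicate 1. Same-numbered libraries of the groups had deviations from the group means that correlated at -0.06, 0.15 and 0.1. For libraries of unlike number the correlations lay between -0.2 and 0.08. With 3 libraries a group these values cannot tell whether the numbers pair the samples. With the replicate block 1900 genes were higher and 2127 lower, and 1 and 6 of the 10 genes; of the genes named, the block ended the call of Limk1 alone (adjusted p = 0.0615 by limma). Efnb1, with at most 111 reads a library, lost its call in more of these settings than any other of the 10 genes. The part of depth in this was not tested.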
